A study of Homo sapiens with 15 samples.

Results

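The IL-6 family is described here through 10 genes: the cytokines IL6, IL11, LIF and CLCF1, the receptor chains IL6R, LIFR, OSMR and IL6ST, the transcription factor STAT3 and the feedback inhibitor SOCS3. Every probe of the array that was not a control and whose transcript identifier belongs to one of these genes was taken, which gave 20 of 50599 probes. Of these, 15 probes for 7 genes were bright enough to be tested, and all 15 were well above background on all 15 arrays. The other 5 probes were those of IL6R (2 probes), LIFR and IL11 and 1 of the 7 probes of IL6ST.

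The study asked what TLR4, the receptor for bacterial lipopolysaccharide (LPS), does in keratinocytes, and compared gene expression of SCC13 cells with and without a TLR4 plasmid. SCC13 is an established line of squamous cell carcinoma of the skin. Cells carrying pUNO-TLR4GFP (SCC13-TLR4) or the control plasmid pUNO (SCC13-pUNO) were both selected with blasticidin and grown in DMEM with fetal calf serum, and the SCC13-TLR4 cells were sorted for their GFP signal. The arrays were 4 of untreated SCC13-pUNO, 3 of untreated SCC13-TLR4, 4 of SCC13-pUNO after 10 μg/ml ultrapure LPS for 24 h and 4 of SCC13-TLR4 after the same LPS. Within a group the cultures were seeded in parallel from the same stable line. The p-values thus measure the spread between cultures and their arrays, and not between transfections.

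Cytokines of this family signal through receptor complexes that share the chain gp130, the product of IL6ST. IL-6 first binds its own receptor IL6R, whereas LIF and oncostatin M use gp130 together with LIFR or OSMR, and the assembled complex activates JAK kinases, which phosphorylate STAT3. STAT3 then induces SOCS3, which binds gp130 and the JAK kinases and shuts the signal off. Keratinocytes are known to make IL-6 and to respond to it and to oncostatin M during wound repair and inflammation, and LPS acting on TLR4 is a classical inducer of IL6 transcription through NF-kB.

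All levels are given as the log2 intensity of a probe minus the log2 of the 75th percentile of its array, so that 0 is the brightness of that percentile and a difference of 1 is a doubling. Levels of different probes are not comparable with each other. The 75th percentile lay between 192 and 420, spots well above background made up from 47.1% to 56.2% of an array, and precision is limited by how many arrays there are. The RNA is from bulk cultures, in which fewer cells expressing a gene and less RNA per cell cannot be told apart. Of 10 keratinocyte markers, 9 were well above background on all 15 arrays, whereas each array had at most 1 of 7 fibroblast markers, between 2 and 3 of 4 leukocyte markers and between 1 and 3 of 3 endothelial markers above it. TLR4 itself (probe A_24_P69538) lay between 2.84 and 3.19 on all SCC13-TLR4 arrays and between -6.40 and -3.80 on the SCC13-pUNO arrays other than the one labelled untreated SCC13-pUNO replicate 2, which read 3.04, against its label. That array was kept under its label. Leaving it out moved the differences of the 15 tested member probes by at most 0.14 on the log2 scale, and values without it are given beside the IL6, LIF, STAT3 and ATF3 results it touches most and beside the counts over all probes. The arrays lay on 2 slides, 8 on slide 1 and 7 on slide 2. Unless slide is named as part of the fit, the p-values also take in the spread between the slides. Untreated SCC13-pUNO replicates 1 to 3 lay on slide 1 and replicate 4 on slide 2. Untreated SCC13-TLR4 replicate 1 lay on slide 1 and replicates 2 and 3 on slide 2, so line and slide are partly mixed in untreated cells. On both slides each group had its own column of positions, so that group and column cannot be told apart, and the array against its label lay in the column of the untreated SCC13-TLR4 arrays.

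The receptor genes IL6ST, LIFR and OSMR lie on human chromosome 5, and STAT3 and SOCS3 on chromosome 17. In build GRCh38.p14 IL6 spans chromosome 7 from 22727200 to 22731998, and SOCS3 spans chromosome 17 from 78356778 to 78360925. Both are shown because their levels went up and down together across the arrays, as described further on. The 250 bases before the start of each gene are printed 5′ to 3′ on the strand of the gene (IL6 plus, chr7:22726950-22727199; SOCS3 minus, chr17:78360926-78361175; RefSeq). Capitals mark matches on either strand to the STAT motif TTCNNNGAA, the NF-kB motif, the AP-1 motif TGANTCA, the C/EBP motif TTNNGNAA and the CRE core ACGTCA.
IL6: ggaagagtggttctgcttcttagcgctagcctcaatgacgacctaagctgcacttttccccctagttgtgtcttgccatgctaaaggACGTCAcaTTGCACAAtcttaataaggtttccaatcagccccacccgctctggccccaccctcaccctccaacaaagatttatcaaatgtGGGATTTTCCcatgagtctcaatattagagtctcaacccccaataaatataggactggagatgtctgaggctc
SOCS3: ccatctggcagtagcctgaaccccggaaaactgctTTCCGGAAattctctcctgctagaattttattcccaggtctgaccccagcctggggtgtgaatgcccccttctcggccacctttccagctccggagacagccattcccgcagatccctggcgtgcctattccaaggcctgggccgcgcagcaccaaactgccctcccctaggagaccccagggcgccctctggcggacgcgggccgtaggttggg

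The window of IL6 held 1 CRE core between 163 and 158 bases before the start, 1 C/EBP match between 155 and 148 and 1 NF-kB match between 73 and 64, and these did not overlap. The printed window of SOCS3 held 1 C/EBP match, between 215 and 208 bases before the start. Another window of SOCS3, before a further RefSeq start (chr17:78359668-78359917), is not printed and held no match to any of these motifs. Among 35116 human windows of the same length, 7.1% held the CRE core, 33.2% the C/EBP motif, 9.96% the NF-kB motif, 6.57% the STAT motif and 6.57% the AP-1 motif. The motif matches are letters only and are not evidence of binding. RefSeq windows were at hand for 8 of the 10 genes.

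The first question was which parts of the pathway the cells expressed. The tested probes of the cytokines IL6, LIF and CLCF1, the receptor chains IL6ST and OSMR, STAT3 and SOCS3 were well above background on all arrays. This held in both lines, with and without LPS. It did not hold for the ligand-binding chains IL6R and LIFR. Both IL6R probes and the LIFR probe were well above background on 0 of 15 arrays. Their levels lay between -6.46 and -4.38 for IL6R and between -6.26 and -4.30 for LIFR. The faintest probe well above background on an array lay between -4.71 and -3.94. IL6R and LIFR were therefore not detectable at this sensitivity in either line, which does not show that they are absent.

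IL11, a cytokine of the same family, was at the edge of detection. It was well above background on 3 of 15 arrays, at -3.56 on untreated SCC13-pUNO replicate 3 and at -3.73 and -3.71 on SCC13-TLR4 with LPS replicates 2 and 3. On the other 12 arrays it read between -5.28 and -3.80. No group had it above background on every array, so it was not tested. The untested probe of IL6ST (A_33_P3233843) was above background on 1 of 15 arrays, at -1.15 on untreated SCC13-pUNO replicate 3, and read between -6.60 and -4.71 on the others.

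**Figure D1:**
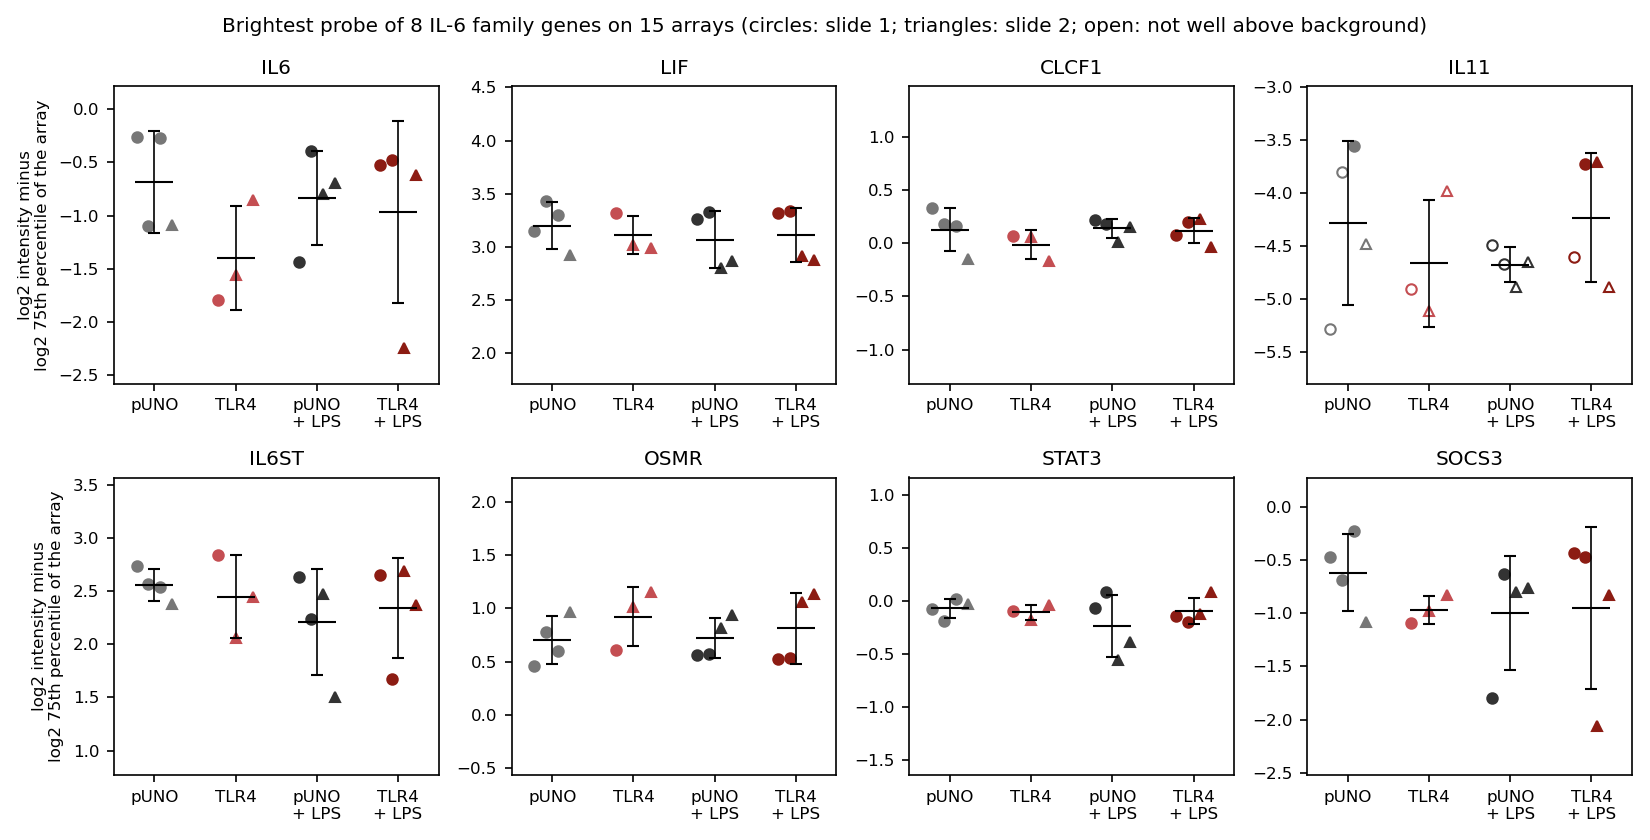
Level of the brightest probe of 8 genes on each array (log2 intensity minus the log2 75th percentile of the array, y axis) by line and LPS, with the mean and SD of each group as black bars; circles are slide 1, triangles slide 2 and open symbols arrays where the probe was not well above background. The groups overlap in every panel, IL6 and SOCS3 have single low arrays after LPS (-2.25 for IL6 and -2.06 for SOCS3 on the same SCC13-TLR4 array), and IL11 is above background on 3 arrays.

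The comparison of the lines asked whether TLR4 changed these genes. In untreated cells, with LPS and over both states together, 0 of the 15 member probes passed a limma adjusted p of 0.05 (smallest adjusted p 0.999, 1 and 0.996). Of all 22676 tested probes, 0 passed in untreated cells (0%), 0 with LPS (0%) and 5 over both states (0.022%). Without the array against its label 7 passed in untreated cells, 10 with LPS and 23 over both states (0.101%), none of them a member probe. Leaving out any other single array gave between 0 and 2 over both states. At an unadjusted p under 0.05 there was 1 member probe in untreated cells (LIF), where 2.48% of all tested probes passed, 1 with LPS (OSMR), where 2.71% passed, and 2 over both states (OSMR and STAT3), where 4.32% passed. Without the array against its label the LIF probe and the STAT3 probe no longer had an unadjusted p under 0.05. The median difference of the member probes, SCC13-TLR4 minus SCC13-pUNO, was -0.09 in untreated cells, 0.05 with LPS and -0.01 over both, beside -0.02, -0.01 and -0.01 for all tested probes. The groups of arrays did not overlap for 2 of 15 member probes in untreated cells, where 3.73% of all probes did not overlap, and for 0 with LPS (1.28% of all probes) and over both states (0.0706%).

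The response to LPS was examined within each line. In SCC13-pUNO and in SCC13-TLR4, 0 of the 15 member probes passed the adjusted p after 24 h (smallest adjusted p 1 in both), as did 0 of all tested probes (0% and 0%). At an unadjusted p under 0.05 there were 0 member probes in SCC13-pUNO, where 2.47% of all probes passed, and 1 in SCC13-TLR4 (OSMR), where 1.33% passed. The difference of both responses passed for 0 member probes (0% of all probes), also without adjustment, where 1.31% of all probes passed. The groups of arrays did not overlap for 0 member probes, beside 1.27% of all probes in SCC13-pUNO and 1.79% in SCC13-TLR4. A p above the threshold does not show that the groups were alike, and the intervals below give the differences that the arrays leave possible.

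**Figure D2:**
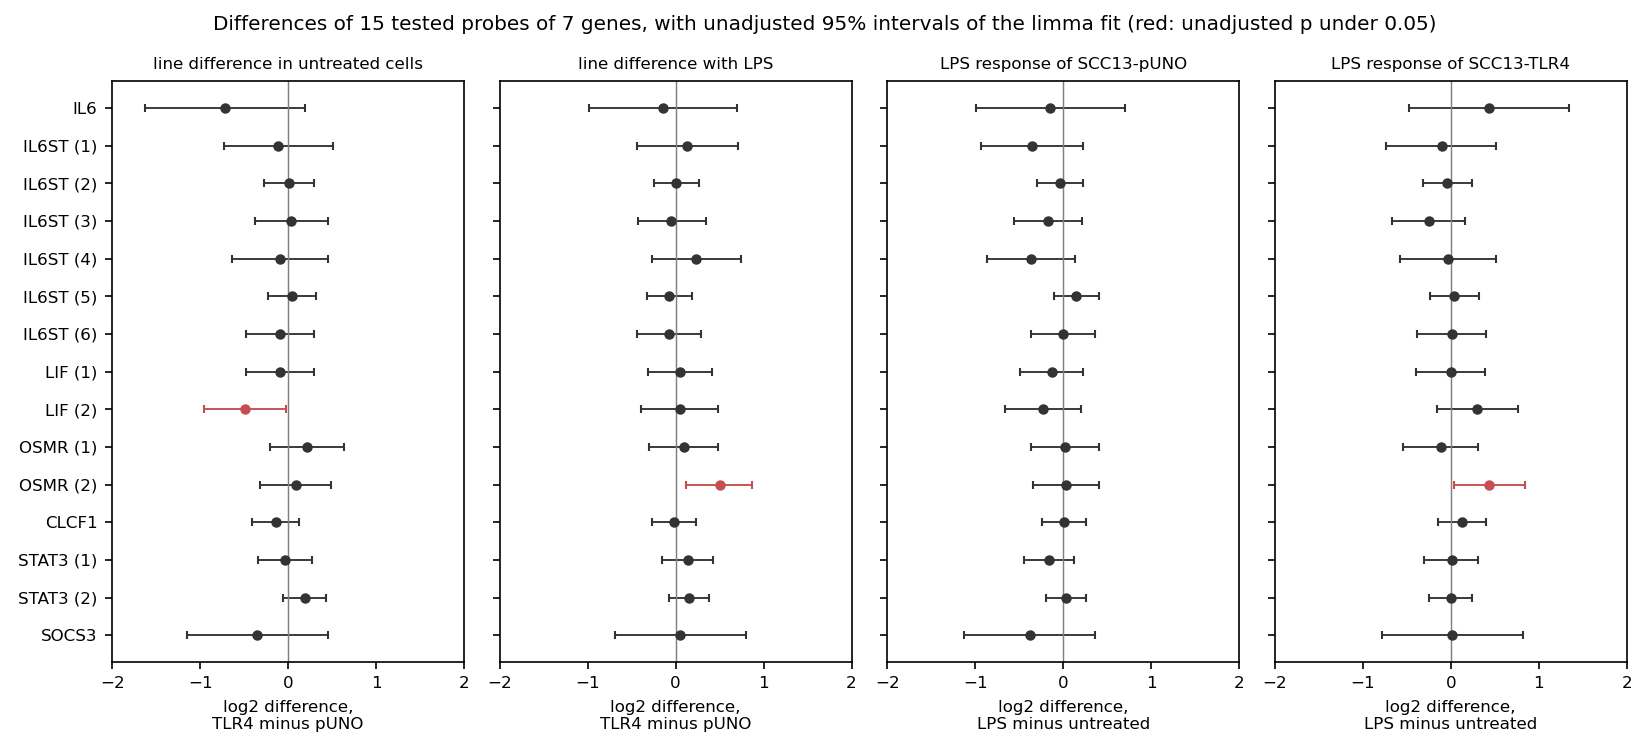
Log2 differences (x axis) of the 15 tested probes in 4 comparisons, as points with unadjusted 95% intervals from the limma fit on all 15 arrays; probes of a gene are numbered from the brightest, and red marks an unadjusted p under 0.05. The intervals of IL6 are wide (-1.63 to 0.19 in untreated cells), wider than that of CLCF1 with LPS (-0.27 to 0.23).

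IL6, the cytokine that gives the family its name, was the tested member whose level varied most, with an SD of 0.59 over all arrays. In untreated SCC13-pUNO cells IL6 (probe A_23_P71037) was at -0.26, -1.10, -0.27 and -1.09 in replicates 1 to 4, and in untreated SCC13-TLR4 cells at -1.79, -1.56 and -0.85. With LPS it was at -1.44, -0.39, -0.80 and -0.69 in SCC13-pUNO and at -0.52, -0.48, -2.25 and -0.62 in SCC13-TLR4. The untreated SCC13-TLR4 arrays thus held 2 of the 3 lowest levels and overlapped with SCC13-pUNO, and the single lowest level of all was SCC13-TLR4 with LPS replicate 3. The group means were -0.68 ± 0.48 (SD, n = 4), -1.40 ± 0.49 (SD, n = 3), -0.83 ± 0.44 (SD, n = 4) and -0.97 ± 0.86 (SD, n = 4) in that order.

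In untreated cells IL6 differed between the lines by a log2 value of -0.72 (SE 0.42, SCC13-TLR4 lower, limma adjusted p = 0.999), with a 95% interval from -1.63 to 0.19, and was lower in 10 of 12 pairs of arrays (two-sided exact permutation test, p = 0.171; the smallest p this design allows is 0.0286). Without the array against its label the difference was -0.86 (SE 0.46, limma adjusted p = 1), lower in 8 of 9 pairs. Slide 1, where SCC13-TLR4 replicate 1 was the only array of its group, gave -1.25 with all arrays and -1.52 without the array against its label. Slide 2, where SCC13-pUNO replicate 4 was the only array of its group, gave -0.12. With LPS the difference was -0.14 (SE 0.39, limma adjusted p = 1), and the slides had opposite signs, 0.42 on slide 1 and -0.69 on slide 2. Without SCC13-TLR4 with LPS replicate 3 it was 0.29.

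LPS left IL6 at a difference of -0.15 (SE 0.39, limma adjusted p = 1, 95% interval -0.99 to 0.70) in SCC13-pUNO, and of 0.44 (SE 0.42, limma adjusted p = 1, 95% interval -0.47 to 1.35) in SCC13-TLR4. In SCC13-pUNO the difference was -0.29 (SE 0.43, limma adjusted p = 1, 95% interval -1.21 to 0.64) without the array against its label and 0.06 without SCC13-pUNO with LPS replicate 1. In SCC13-TLR4 it was higher in 9 of 12 pairs of arrays (two-sided exact permutation test, p = 0.486), by 1.29 on slide 1, whose untreated array was the second lowest of all, and by -0.23 on slide 2. Leaving out SCC13-TLR4 with LPS replicate 3 moved this difference to 0.86. The responses of the lines differed by 0.58 (SE 0.58, limma adjusted p = 1), and by 0.72 (SE 0.60, limma adjusted p = 1) without the array against its label. A 4-fold rise of IL6 after LPS lies outside both intervals, and a 2-fold rise lies outside that of SCC13-pUNO but within that of SCC13-TLR4.

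SOCS3, the inhibitor that STAT3 induces, varied almost as much, with an SD of 0.49 over all arrays. SOCS3 (probe A_23_P207058) was at -0.47, -0.69, -0.23 and -1.08 in untreated SCC13-pUNO and at -1.09, -0.98 and -0.83 in untreated SCC13-TLR4. With LPS it was at -1.80, -0.63, -0.80 and -0.76 in SCC13-pUNO and at -0.43, -0.47, -2.06 and -0.83 in SCC13-TLR4. The lowest levels were those of SCC13-TLR4 with LPS replicate 3 and SCC13-pUNO with LPS replicate 1, and all groups overlapped.

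In untreated cells SOCS3 differed between the lines by -0.35 (SE 0.37, limma adjusted p = 0.999, 95% interval -1.15 to 0.45) and with LPS by 0.05 (SE 0.34, limma adjusted p = 1). The LPS response was -0.38 (SE 0.34, limma adjusted p = 1) in SCC13-pUNO, where it was -0.12 without SCC13-pUNO with LPS replicate 1, and 0.02 (SE 0.37, limma adjusted p = 1) in SCC13-TLR4, where it was 0.39 without SCC13-TLR4 with LPS replicate 3. The size of both values thus rested on single low arrays.

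The levels of IL6 and SOCS3 went together from array to array. After each slide was centred on its mean, Pearson's r over the 15 arrays was 0.85 and Spearman's rho 0.76. Within slide 1 r was 0.80 and rho 0.69 (n = 8), and within slide 2 r was 0.91 and rho 0.75 (n = 7). Leaving out the 2 arrays farthest from the median of IL6 gave r = 0.78 (n = 13), and leaving out the array against its label gave 0.86. This pair had the highest r of the 21 pairs that the 7 brightest probes form, and is given as a description with no test, because it was picked after all pairs were seen and because all genes of an array share its RNA, labelling and hybridization.

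**Figure D3:**
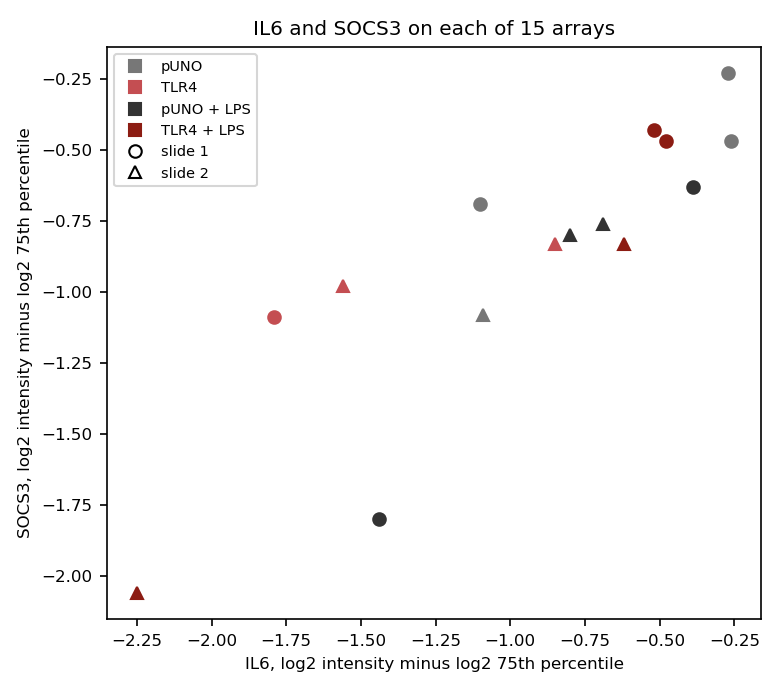
Level of SOCS3 (y axis) against that of IL6 (x axis) on each of the 15 arrays, both as log2 intensity minus the log2 75th percentile of the array; colours are the groups, circles slide 1 and triangles slide 2. The arrays run from low to high in both genes, with SCC13-TLR4 with LPS replicate 3 at the bottom left (-2.25 and -2.06), and arrays of each group are spread along the line.

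Many other genes followed IL6 as closely as SOCS3 did. Among 15402 probes with a symbol that were above background on all arrays, the 3 genes most like IL6 over the 15 slide-centred arrays were FAM200B (r = 0.97, rho = 0.96), RBM17 (r = 0.97, rho = 0.95) and NAGPA (r = 0.96, rho = 0.91), and SOCS3 ranked 88 of 11868 genes. Those most like SOCS3 were ERLEC1 (r = 0.95, rho = 0.69), SPTLC1 (r = 0.94, rho = 0.79) and FBXO16 (r = 0.94, rho = 0.87), with IL6 at rank 95. For LIF they were NQO2 (r = 0.93, rho = 0.91), IER3 (r = 0.91, rho = 0.86) and KPNA4 (r = 0.90, rho = 0.71). No other member was among the 3 genes most like any of the 7 tested members. For the receptor chain IL6ST they were KHSRP, PALM3 and EML4 (r between 0.94 and 0.96), for OSMR they were DCAF7, SLC30A9 and ALG2 (r between 0.90 and 0.94), for STAT3 they were DCAF6, NXF1 and IRAK1 (r = 0.92 each), and for CLCF1 they were CLASP1, RPL29 and METTL27 (r between 0.72 and 0.80).

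LIF, which signals through gp130 and LIFR, followed the slide. Its brighter probe (A_24_P122137) was at 3.15, 3.43 and 3.30 on slide 1 and 2.92 on slide 2 in untreated SCC13-pUNO, and at 3.32 on slide 1 and 3.02 and 2.99 on slide 2 in untreated SCC13-TLR4. With LPS it was at 3.26 and 3.33 against 2.80 and 2.87 in SCC13-pUNO, and at 3.32 and 3.34 against 2.91 and 2.88 in SCC13-TLR4, again slide 1 against slide 2. The slides did not overlap, with all 8 arrays of slide 1 at 3.15 or above and all 7 of slide 2 at 3.02 or below. In the fit with slide and group the difference, slide 2 minus slide 1, was -0.41 (SE 0.05, limma adjusted p = 6.71e-05).

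OSMR, the receptor chain for oncostatin M, moved the other way. Its brighter probe (A_21_P0000073) lay between 0.46 and 0.78 on slide 1 and between 0.82 and 1.15 on slide 2, also without overlap, and was higher on slide 2 by 0.43 (SE 0.06, limma adjusted p = 0.000217). These were the 2 of 15 member probes that differed between the slides, where 11754 of 22676 tested probes did (51.8%). Of the other 13, CLCF1 had the smallest adjusted p (-0.15, SE 0.07, limma adjusted p = 0.0849). The median slide difference was -0.14 over the member probes and -0.13 over all tested probes. Without the array against its label the slide differences were -0.39 (SE 0.05) for LIF and 0.45 (SE 0.06) for OSMR.

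With slide in the fit, the brighter LIF probe differed between the lines by 0.08 (SE 0.08) in untreated cells and 0.05 (SE 0.07) with LPS, and the LPS response was -0.03 (SE 0.07) in SCC13-pUNO and -0.06 (SE 0.07) in SCC13-TLR4. Without slide the standard errors of these differences were between 0.17 and 0.18. With slide in the fit these LIF differences were thus all within 0.08 of 0, and none passed the threshold. For the brighter OSMR probe the corresponding differences were 0.04 (SE 0.09), 0.09 (SE 0.08), -0.09 (SE 0.09) and -0.04 (SE 0.09).

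**Figure D4:**
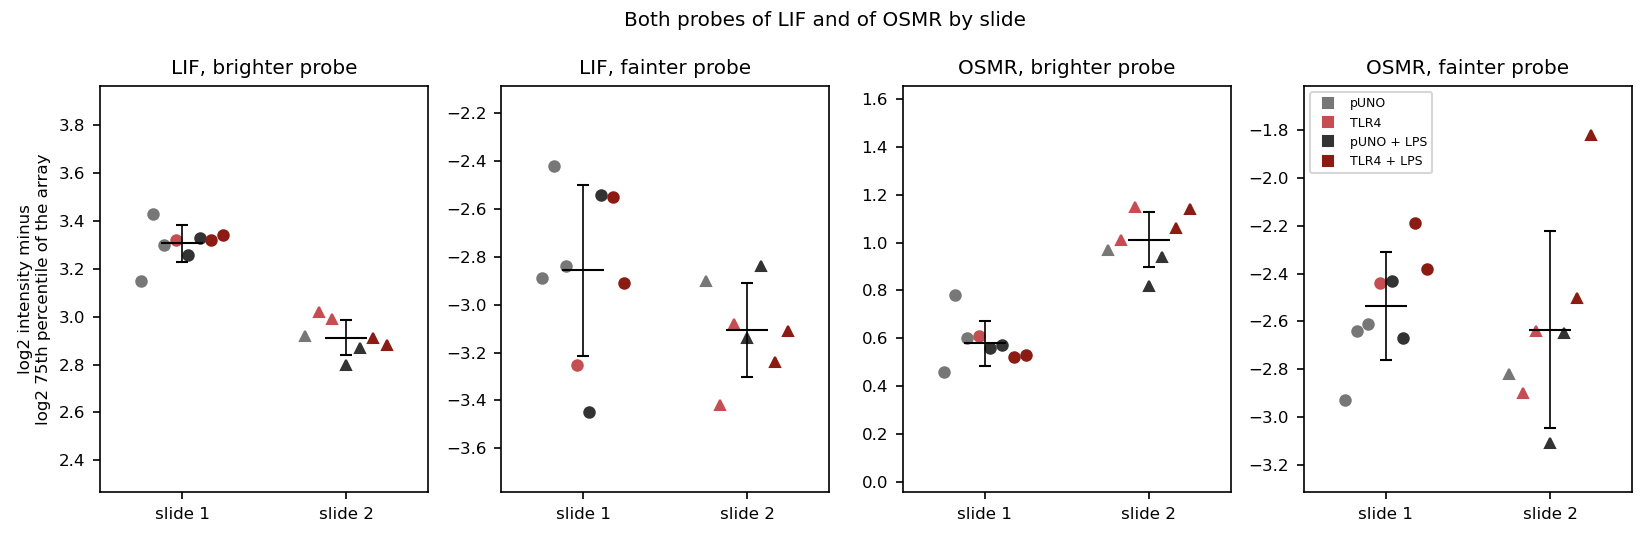
Level of both probes of LIF and of OSMR (log2 intensity minus the log2 75th percentile of the array, y axis) by slide, coloured by group, with the mean and SD of each slide as black bars. The brighter LIF probe is higher on slide 1 and the brighter OSMR probe higher on slide 2, each without overlap, whereas the slides overlap for the fainter probe of each gene.

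The fainter probes of LIF and OSMR did not pass the threshold between the slides. Within the comparisons of line and LPS they had unadjusted p-values under 0.05. The fainter LIF probe (A_24_P233488) was at -2.89, -2.42, -2.84 and -2.90 in untreated SCC13-pUNO and at -3.25, -3.42 and -3.08 in untreated SCC13-TLR4, without overlap. It was lower in SCC13-TLR4 by a difference of -0.49 (SE 0.22, limma p = 0.0421, limma adjusted p = 0.999), in 12 of 12 pairs (two-sided exact permutation test, p = 0.0286, the smallest this design allows). Without the array against its label, which had the highest of these levels, it was -0.37 (SE 0.22, limma p = 0.12, limma adjusted p = 1; two-sided exact permutation p = 0.1, the smallest possible). With LPS the lines differed by 0.05 (SE 0.20). The brighter LIF probe differed by -0.09 (SE 0.18) in the same untreated cells, and the correlation of both probes over the slide-centred arrays was r = 0.19, so the probes disagreed.

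The fainter OSMR probe (A_23_P156289), whose transcript is another one than that of the brighter probe, was at -2.43, -2.67, -3.11 and -2.65 in SCC13-pUNO with LPS and at -2.19, -2.38, -2.50 and -1.82 in SCC13-TLR4 with LPS. It was higher in SCC13-TLR4 in 15 of 16 pairs, by 0.50 (SE 0.17, 1.41-fold, 95% interval 0.12 to 0.87, limma p = 0.0134, limma adjusted p = 1), with a two-sided exact permutation p of 0.0571. The groups overlapped by the single array SCC13-pUNO replicate 1. Slide 1 alone gave a difference of 0.27 and slide 2 alone 0.72.

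In untreated cells the fainter OSMR probe was at -2.93, -2.64, -2.61 and -2.82 in SCC13-pUNO and at -2.44, -2.90 and -2.64 in SCC13-TLR4, a difference of 0.09 (SE 0.19, limma adjusted p = 0.999). Its LPS response was 0.44 (SE 0.19, limma adjusted p = 1; two-sided exact permutation p = 0.114) in SCC13-TLR4 and 0.03 (SE 0.17, limma adjusted p = 1) in SCC13-pUNO, and the difference of the responses was 0.41 (SE 0.26, limma adjusted p = 1). The brighter OSMR probe, at 0.09 (SE 0.18) between the lines with LPS and -0.11 (SE 0.20) after LPS in SCC13-TLR4, did not have this pattern.

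CLCF1, a cytokine that uses gp130 and LIFR with the receptor of ciliary neurotrophic factor, stayed within a narrow range, from -0.17 to 0.33 on all arrays. Untreated SCC13-pUNO averaged 0.13 ± 0.20 (SD, n = 4) and untreated SCC13-TLR4 -0.01 ± 0.14 (SD, n = 3). With LPS the averages were 0.14 ± 0.09 (SD, n = 4) in SCC13-pUNO and 0.12 ± 0.12 (SD, n = 4) in SCC13-TLR4. Its line differences were -0.14 (SE 0.12) untreated and -0.02 (SE 0.12, 95% interval -0.27 to 0.23) with LPS.

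STAT3, the transcription factor that gp130 activates, was read by 2 probes, of which the fainter (A_23_P100795) is printed in 10 spots on each array. The fainter probe was at -2.04, -1.97, -2.06 and -1.89 in untreated SCC13-pUNO and at -1.84, -1.70 and -1.88 in untreated SCC13-TLR4, so the lowest SCC13-TLR4 level was 0.01 above the highest of SCC13-pUNO. With LPS it was at -1.79, -1.97, -2.16 and -1.93 in SCC13-pUNO and at -1.95, -1.93, -1.68 and -1.69 in SCC13-TLR4, with overlap. Over both states it was higher in SCC13-TLR4 by 0.17 (SE 0.08, 1.12-fold, limma p = 0.0487, limma adjusted p = 0.996), in 48 of 56 pairs (two-sided exact permutation test, p = 0.0166). Without the array against its label the difference was again 0.17 (SE 0.08, 95% interval -0.01 to 0.36, limma p = 0.063, limma adjusted p = 0.999; two-sided exact permutation p = 0.0245). The brighter STAT3 probe (A_24_P116805), which lay between -0.56 and 0.08, differed by 0.05 (SE 0.10, limma adjusted p = 0.996) over both states. These values concern the STAT3 transcript and not its phosphorylation.

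IL6ST, the shared chain gp130, had 6 tested probes, none of which had an unadjusted p under 0.05 between the lines or after LPS. The line differences of the 6 probes ran from -0.11 to 0.04 in untreated cells and from -0.08 to 0.23 with LPS, 3 higher and 3 lower in each. The LPS response ran from -0.36 to 0.15 in SCC13-pUNO, lower for 5 of 6 probes, and from -0.25 to 0.04 in SCC13-TLR4, lower for 4 of 6. The smallest unadjusted limma p among all of these was 0.143. The brightest probe (A_33_P3233841) lay between 1.50 and 2.84 over all arrays.

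The probes of IL6ST did not all go together from array to array. Over the slide-centred arrays the brightest probe correlated with the second brightest at r = 0.57 (rho = 0.71). With the third and the fourth brightest it correlated at r = 0.91 (rho = 0.60) and r = 0.76 (rho = 0.45). With the 2 faintest of the tested probes r was -0.06 (rho = -0.03) and -0.34 (rho = -0.34).

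The wider pathway was read through 5 lists of other genes, each gene by its brightest probe. For each list, 0 genes passed the adjusted p in the line comparisons or the LPS comparisons. Among the other ligands, OSM, the ligand of OSMR, was above background on 4 of 15 arrays, whereas EBI3 and IL31 were above it on 0. CNTF, IL27 and CTF1 were tested, and with LPS their line differences were -0.29 (SE 0.21), -0.22 (SE 0.18) and -0.20 (SE 0.13), with a limma adjusted p of 1 for each. In untreated cells the line differences were 0.31 (SE 0.23) for CNTF, 0.14 (SE 0.20) for IL27 and -0.14 (SE 0.14) for CTF1.

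Among 6 other receptor and shedding genes, 5 were on the array with a symbol and 3 were tested. IL27RA, which pairs with gp130, and the proteases ADAM10 and ADAM17, which can shed IL6R, had line differences between -0.15 and -0.08 in untreated cells and between -0.11 and 0.08 with LPS. CNTFR and IL31RA were above background on 0 of 15 arrays. Together with IL6R and LIFR, 4 of the receptor chains named here were thus below detection.

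Of 22 genes of JAK-STAT signalling and its inhibitors, 19 were tested, and the median line difference was -0.04 in untreated cells and 0.04 with LPS. The values farthest from 0 were those of JAK1 (0.43, SE 0.39) and JAK2 (-0.43, SE 0.23), the kinases bound to gp130, and CISH (0.30, SE 0.50), a SOCS family inhibitor, in untreated cells. With LPS they were CISH (0.58, SE 0.47), STAT5B (-0.18, SE 0.15) and SOCS5 (-0.18, SE 0.13). CISH also had the list's largest LPS response, 1.05 (SE 0.50, limma adjusted p = 1) in SCC13-TLR4 and 0.78 (SE 0.47, limma adjusted p = 1) in SCC13-pUNO. It was above background on 8 of 15 arrays. These were 1 of untreated SCC13-pUNO, 1 of untreated SCC13-TLR4, 2 of SCC13-pUNO with LPS and all 4 of SCC13-TLR4 with LPS. CISH was thus tested only through the group where its level was highest, so the size of its differences is no support for a response. JAK1 differed by 0.97 (SE 0.07, limma adjusted p = 3.13e-07) between the slides.

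Of 23 genes that STAT3 is known to induce, 17 were tested, with a median line difference of -0.03 in untreated cells and -0.03 with LPS. BCL3 (-0.27, SE 0.23), MYC (-0.19, SE 0.14) and BIRC5 (-0.16, SE 0.17) lay farthest from 0 in untreated cells, and CEBPD (-0.35, SE 0.54), TWIST1 (0.25, SE 0.20) and BCL3 (-0.24, SE 0.21) with LPS. The median LPS response was -0.04 in SCC13-pUNO and -0.01 in SCC13-TLR4. FOS, an early response transcription factor, was the 1 of 17 tested genes of the list at an unadjusted p under 0.05, where 2.47% of all tested probes passed (LPS response of SCC13-pUNO 0.86, SE 0.37, limma adjusted p = 1), and its response in SCC13-TLR4 was 0.75 (SE 0.40, limma adjusted p = 1). Of the same list, SAA1, SAA2, LCN2, S100A8 and S100A9 were above background on at most 2 of 15 arrays. LRG1 was above it on 5 of 15 arrays and SERPINA3 on all 15.

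Of 12 regulators of IL6 transcription and mRNA decay, 11 were tested. Their median line difference was -0.08 in untreated cells and 0.05 with LPS, and the NF-kB gene RELA (-0.16, SE 0.22) and the NF-kB cofactor NFKBIZ (-0.15, SE 0.31) followed ATF3 in size in untreated cells. With LPS NFKBIZ was at -0.41 (SE 0.28) and JUN at 0.21 (SE 0.30).

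ATF3, a transcription factor that restrains IL6 transcription after TLR signals, lay apart from the rest of these regulators. Its brightest probe (A_23_P34915) was at -1.97, 0.01, -1.83 and -2.10 in untreated SCC13-pUNO and at -1.11, -0.12 and 0.00 in untreated SCC13-TLR4. With LPS it was at -1.38, -1.81, -2.46 and -1.58 in SCC13-pUNO and at -1.22, -0.40, -0.27 and -0.13 in SCC13-TLR4. On this probe all SCC13-TLR4 arrays were above all SCC13-pUNO arrays but one, the array against its label, which had the highest level of all. Over both states the difference was 1.18 (SE 0.33, limma adjusted p = 0.873), and without that array it was 1.43 (SE 0.23, limma adjusted p = 0.0462). The other 2 tested ATF3 probes differed by 0.33 and 0.45 without that array, with limma adjusted p = 0.999 for both. The first of them (A_33_P3214096) differed by 0.75 in untreated cells and by -0.08 with LPS. The array against its label read -1.59 on it, between other untreated SCC13-pUNO arrays (-1.86 and -1.26). On the other probe (A_33_P3214105) that array read -1.03, above all other untreated arrays of both lines.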

How the data were processed

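Gene expression was measured on 15 one-colour Agilent SurePrint G3 8x60K arrays. Per the file headers, the authors made the deposited spot intensity with Feature Extraction 10.7.3.1, which subtracted the background, and did not normalize between arrays. The deposited series matrix held the same intensities. From these, the log2 of the intensity minus the log2 of the 75th percentile of the array was computed, spots marked as outliers were left out, and spots of a probe were averaged. A probe was tested if all arrays of some group had it well above background (22676 of 50599), in a limma fit (version 3.58.1, R 4.3.3) that gave each group its own mean, with Benjamini-Hochberg adjustment over all tested probes at 0.05. The slide difference came from the same fit with slide added. For single probes, exact permutation tests (two-sided) were run over the arrays. Genes were named through the transcript identifiers of the probes with a RefSeq table (GRCh38.p14).

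The brightest probe, by mean level over the arrays, stood for a gene, and for each list and comparison up to 3 genes with the largest differences were named. Genes most like a member were the 3 with the highest Pearson's r over slide-centred arrays. The members and lists were chosen with earlier results of these data known. Some results of the list of other ligands are not reported here. The fainter probes of LIF, OSMR and STAT3, and ATF3 over both states, were singled out after their values had been seen. Tables were made with Python 3.11.15, numpy 2.4.6, pandas 2.3.3 and scipy 1.17.1, and figures with matplotlib 3.10.9.

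Each comparison was repeated with normexp background correction (offset 50), on median intensities because no mean intensities were at hand. It was also repeated with quantile normalization, without the filter, with detection required on all 15 arrays and with outlier spots kept. Other fits had a replicate block, slide as a factor, the same without the array against its label, or array weights. Further repeats used only the groups compared, a log2 threshold of 2, a mean over the probes of a gene and each array left out in turn.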

Additional observations from a re-analysis of the deposited data

Results flagged for a closer look

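Within groups of 4 arrays, 2 levels of member probes stood far from the others of their group, among 21 groups checked by Dixon's test, where about 1.05 would be marked by chance. IL6 was at -2.25 on SCC13-TLR4 with LPS replicate 3, and the rest of that group lay between -0.62 and -0.48. SOCS3 was at -1.80 on SCC13-pUNO with LPS replicate 1, where the others were between -0.80 and -0.63.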

How the results depend on the processing

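The count of member probes past the adjusted p stayed at 0 for every line comparison, LPS comparison and the difference of responses under every alternative run. Few probes of the whole array were called in these comparisons. The most was 49 of 22676 tested probes, over both states, with slide in the fit and the array against its label left out. The counts of 0 are therefore no trait of the member probes. For the difference between the slides the count of member probes was 2, beside 11754 of all tested probes. It became 1 with the replicate block, beside 5228 of all. It became 0 where an absolute log2 difference over 2 was also required, beside 312 of all. Leaving out single arrays gave 2 to 3 such probes. Of 178 such counts, 176 stayed within 1.5 times the main one. Equal replicate numbers did not pair the arrays: the correlation of same-numbered arrays' deviations ran from -0.537 to 0.616 over 21 pairs, negative wherever the arrays lay on different slides. The replicate block changed no other call.

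Of 720 repeated values of 41 single differences, 82 changed sign, and the causes were not tested. None of the 41 differences had passed the threshold in the main fit. The differences are log2 values, and "both states" is the line difference over both LPS states. With slide as a factor, LIF was at 0.08 in untreated cells, 0.06 over both states and -0.06 after LPS in SCC13-TLR4. In the same fit OSMR was at -0.09 after LPS in SCC13-pUNO, STAT3 at 0.00 in untreated cells and -0.01 after LPS in SCC13-TLR4, and SOCS3 at -0.02 after LPS in SCC13-TLR4. With slide in the fit but without the array against its label, LIF was at 0.11 in untreated cells, 0.08 over both states, 0.01 after LPS in SCC13-pUNO and -0.06 in SCC13-TLR4. There OSMR was at -0.03 after LPS in SCC13-pUNO, and STAT3 at -0.01 and SOCS3 at -0.02 after LPS in SCC13-TLR4. Normexp gave 0.04 for LIF and -0.02 for STAT3 over both states, and for CLCF1 0.01 in untreated cells, -0.01 after LPS in SCC13-pUNO and -0.04 in SCC13-TLR4. Quantile normalization gave 0.02 for LIF over both states, -0.01 for CLCF1 after LPS in SCC13-pUNO, and -0.00 for STAT3 and -0.01 for SOCS3 after LPS in SCC13-TLR4. Array weights gave -0.04 for IL6ST over both states and 0.07 after LPS in SCC13-TLR4, -0.03 for CLCF1 after LPS in SCC13-pUNO, and for SOCS3 -0.01 between the lines with LPS and -0.09 after LPS in SCC13-TLR4. The replicate block gave -0.04 for IL6ST over both states. The mean over all tested probes of a gene gave -0.00 for IL6ST over both states, 0.16 for OSMR after LPS in SCC13-TLR4 and 0.08 for STAT3 in untreated cells.

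Leaving out each array in turn changed the sign of these differences. In untreated cells IL6ST ran from -0.31 to 0.09 and STAT3 from -0.07 to 0.00. Between the lines with LPS, IL6 ran from -0.34 to 0.29, IL6ST from -0.10 to 0.36, LIF from -0.04 to 0.13, OSMR from -0.02 to 0.19, CLCF1 from -0.06 to 0.03 and SOCS3 from -0.21 to 0.43. Over both states IL6ST ran from -0.11 to 0.12, LIF from -0.08 to 0.02, STAT3 from -0.00 to 0.10 and SOCS3 from -0.28 to 0.04. After LPS in SCC13-pUNO, IL6 ran from -0.29 to 0.06, OSMR from -0.06 to 0.11 and CLCF1 from -0.08 to 0.08. After LPS in SCC13-TLR4, IL6ST ran from -0.30 to 0.12, LIF from -0.07 to 0.11, OSMR from -0.27 to 0.00, STAT3 from -0.05 to 0.04 and SOCS3 from -0.15 to 0.39.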
